A study of Arabidopsis thaliana with 12 samples.

Results

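The 6 genes described here are AT2G43620, AT4G38080, AT5G04120, AT1G74010, AT5G40590 and AT5G42250 of Arabidopsis thaliana. They were chosen from these arrays because sulfamethoxazole (SMX) moved them in seedlings grown with sucrose, and little or the opposite way in seedlings grown without it. Each is represented by 1 probe set, among 13436 probe sets paired with a single current gene and 22746 tested in all. The 12 arrays hold wild-type seedlings of the Columbia ecotype, 3 biological replicates for each of 4 media: 10 mM sucrose with 0.2 µM SMX, 10 mM sucrose alone, 0.2 µM SMX alone, and no addition (control). Seeds in liquid medium were chilled at 4 °C for 3 days in the dark, lit for 6 h and grown at 21 °C for 3 days, and whole seedlings were then extracted. The labels give no relation between cultures that share a replicate number. No allele or transgene is involved.

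Sulfonamides such as SMX block dihydropteroate synthase, a step of folate synthesis, and folates carry the single carbons used to make nucleotides and methionine. Sucrose serves seedlings as carbon and as a signal that alters growth. The study crossed both additions to ask whether their effects on transcripts depend on each other.

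By family, the 6 genes are not a pathway. AT2G43620 belongs to the chitinases, enzymes that cut chitin, the polymer of fungal walls, and AT4G38080 to the hydroxyproline-rich glycoproteins, a class of wall proteins. AT5G04120 is a phosphoglycerate mutase family member, AT1G74010 resembles strictosidine synthase, an enzyme of alkaloid synthesis in other plants, and AT5G42250 is a zinc-type alcohol dehydrogenase. AT5G40590 encodes a protein with C1 domains, which are rich in cysteine and histidine. These are family assignments, and what each protein does in seedlings is not stated in the sources used here.

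All values are on the log2 scale, and 2.12 is the lowest value on the arrays. Differences that start near that value, or from a level that recurs to the last digit on several arrays, have no exact size. The values chose the genes, so the SMX differences below are a description without a test. In whole-seedling RNA, fewer cells of a type and less RNA per cell cannot be told apart. Of 15 tissue marker genes, 3 could be matched to a probe set and none of these marks photosynthetic tissue. The seed gene OLEO3 had medians of 8.81 with sucrose plus SMX, 8.91 with sucrose, 8.70 with SMX and 9.09 in the control.

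AT2G43620, the chitinase family gene, read 5.83, 6.41 and 6.07 with sucrose plus SMX, against 3.65, 3.26 and 2.65 with sucrose alone. It read 2.57, 2.57 and 2.36 with SMX alone, against 2.53, 2.38 and 2.57 in the control. Only the sucrose plus SMX arrays stood clear of the rest by a wide margin, and the arrays without sucrose overlapped near the lowest value. The SMX difference was 2.92 (SE 0.237) with sucrose, or 7.55-fold, and 0.0082 (SE 0.237) without it.

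AT4G38080, the hydroxyproline-rich glycoprotein gene, read 6.60, 6.96 and 7.48 with sucrose plus SMX, against 4.21, 4.65 and 3.47 with sucrose alone. With SMX alone it read 2.39, 2.35 and 2.87, against 2.54, 2.35 and 2.35 in the control. Its levels formed 3 steps, with the sucrose plus SMX arrays on top, the sucrose arrays between and the arrays without sucrose overlapping at the bottom. The SMX difference was 2.90 (SE 0.317) with sucrose and 0.12 (SE 0.317) without it. Among the 6 genes it had the widest spread between sucrose arrays, an SD of 0.593 (n = 3).

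AT5G04120, the phosphoglycerate mutase family gene, read 7.12, 6.74 and 7.18 with sucrose plus SMX, against 3.47, 3.30 and 3.38 with sucrose alone. With SMX alone it read 3.79, 4.18 and 3.12, against 2.45, 2.45 and 2.46 in the control. Here SMX alone also stood above the control on every array, so a response only with sucrose does not describe this gene. The SMX difference was 3.63 (SE 0.233) with sucrose, or 12.4-fold, and 1.24 (SE 0.233) without it. Sucrose alone and SMX alone overlapped each other and both lay above the control.

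AT1G74010, the strictosidine synthase-like gene, read 6.64, 5.98 and 6.01 with sucrose plus SMX, against 3.79, 4.00 and 3.43 with sucrose alone. With SMX alone it read 4.50, 4.27 and 4.18, against 4.15, 4.16 and 3.97 in the control. The SMX arrays lay just above the control arrays, and the sucrose arrays overlapped the control arrays from below. The SMX difference was 2.47 (SE 0.201) with sucrose and 0.22 (SE 0.201) without it.

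AT5G40590, the C1 domain gene, read 8.20, 7.65 and 8.19 with sucrose plus SMX, against 5.72, 5.68 and 5.59 with sucrose alone. With SMX alone it read 5.68 on all 3 arrays, against 5.36, 5.52 and 6.04 in the control. The last 3 treatments overlapped. The value 5.68 recurred to the last digit on 4 arrays, the 3 SMX arrays and a sucrose array. The SMX difference was 2.35 (SE 0.189) with sucrose and 0.039 (SE 0.189) without it.

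Repeated values of this kind occurred in 46.5% of all probe sets. AT2G43620 had 3 arrays with a repeated value, AT4G38080 had 3 and AT5G04120 had 2, while AT1G74010 and AT5G42250 had 12 distinct values each. None of the repeats fell on a sucrose plus SMX array.

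AT5G42250, the alcohol dehydrogenase gene, ran the other way. It read 7.16, 6.92 and 6.91 with sucrose plus SMX, against 8.07, 7.88 and 7.77 with sucrose alone. With SMX alone it read 9.02, 8.73 and 8.51, against 7.96, 8.22 and 8.15 in the control. SMX was thus below its counterpart with sucrose and above it without, with no overlap in either case, and sucrose alone overlapped the control. The SMX difference was −0.91 (SE 0.14) with sucrose, 1.88-fold lower, and 0.65 (SE 0.14) without it.

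**Figure D1:**
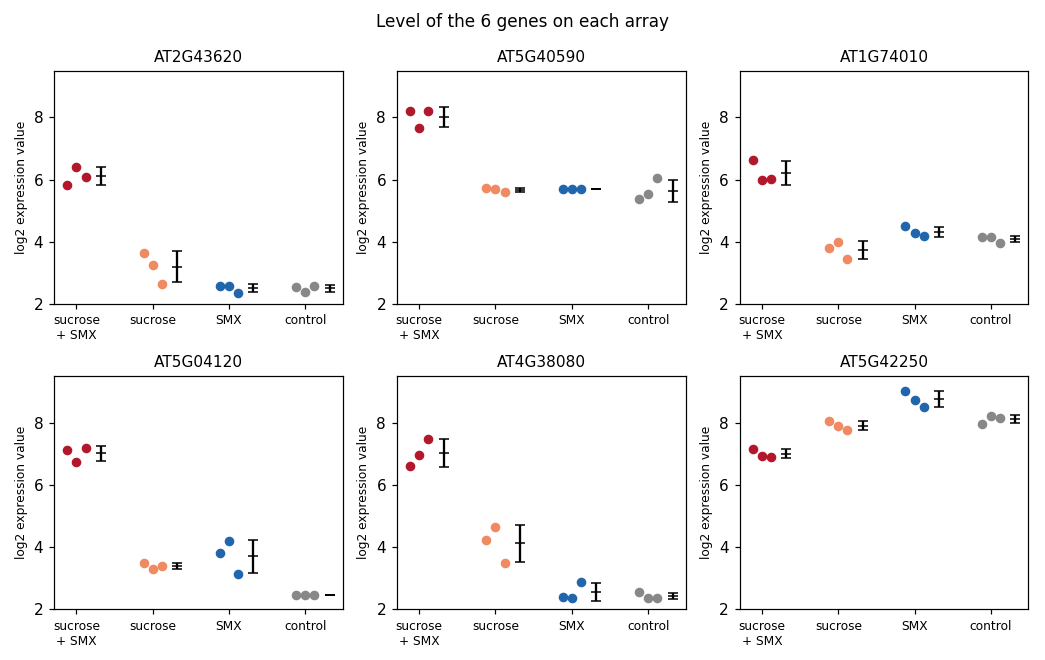
Level of each of the 6 genes on every array (points, log2 expression value) by treatment, with the mean and SD of the 3 arrays beside them. In 5 panels the sucrose plus SMX arrays sit above the 9 other arrays, and in the panel of AT5G42250 they sit below them.

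The sucrose plus SMX arrays lay above the 9 other arrays for 5 of the 6 genes and below them for AT5G42250. Over all probe sets 2.57% lay above and 2.51% below in this way, and since the choice used these contrasts nothing is read from the count. The gap to the nearest other array was 2.57 for AT5G04120, 2.18 for AT2G43620, 1.95 for AT4G38080, 1.61 for AT5G40590 and 1.48 for AT1G74010, against 0.61 for AT5G42250. Among probe sets of a single gene, 13 had a gap above 1 on the high side and 3 on the low side. Against sucrose alone, the sucrose plus SMX arrays did not overlap for 5 genes on the high side (background 4.64%) and 1 on the low side (background 5.06%). Against the control, SMX alone lay higher without overlap for 3 genes, AT5G04120, AT1G74010 and AT5G42250 (background 4.10%), and lower for 0 (background 3.36%).

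Set among the 13436 probe sets of a single gene, AT5G04120 had the largest SMX difference with sucrose. It was exceeded by 2 for AT2G43620, by 3 for AT4G38080, by 4 for AT1G74010 and by 6 for AT5G40590. On the falling side 92 probe sets went further than AT5G42250. The difference between the SMX differences with and without sucrose (the interaction difference) was 2.91 (SE 0.336) for AT2G43620, above which no probe set of a single gene lay. It was 2.78 (SE 0.448) for AT4G38080, 2.38 (SE 0.329) for AT5G04120, 2.31 (SE 0.267) for AT5G40590, 2.25 (SE 0.284) for AT1G74010 and −1.56 (SE 0.199) for AT5G42250. Without sucrose AT2G43620 and AT4G38080 read near the lowest value on most arrays, where a fall with SMX could hardly show. The sizes of their interaction differences are therefore not exact.

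**Figure D2:**
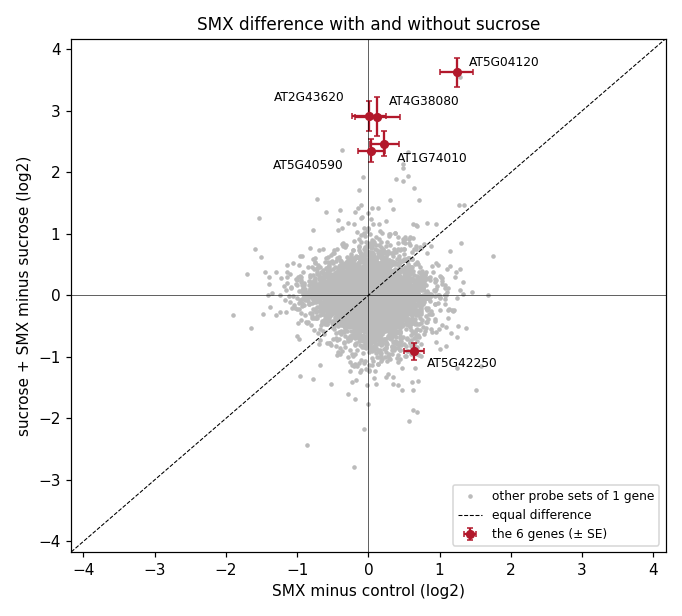
SMX difference with sucrose (vertical axis, sucrose plus SMX minus sucrose, log2) against the SMX difference without sucrose (horizontal axis, SMX minus control, log2) for the 13436 probe sets of a single gene, with the 6 genes in red with their SE and a dashed line of equal differences. Of the 6, 4 lie near 0 on the horizontal axis, AT5G04120 lies at 1.24 and AT5G42250 lies below the line at 0.65.

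Labelling of the RNA was described by a spike score, the log2 level of the 3′ minus the 5′ probe sets of the added Bacillus transcripts dap, lys and phe. It ran from −0.503 to −0.0366 with sucrose plus SMX and from −0.519 to 0.302 with sucrose alone. It ran from 2.90 to 5.73 with SMX alone and from 2.56 to 5.41 in the control. The scores of the arrays compared for SMX thus overlapped at each sucrose level, while arrays with and without sucrose did not overlap. Fitted together with this score, the SMX difference with sucrose was 2.92 for AT2G43620, 2.90 for AT4G38080, 3.63 for AT5G04120, 2.47 for AT1G74010, 2.35 for AT5G40590 and −0.91 for AT5G42250. The mean score was −0.249 with sucrose plus SMX and −0.232 with sucrose alone. Fitting it could therefore hardly change these differences, and the part of labelling in them was not tested.

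Expansin genes of root hairs also read higher with SMX in sucrose-grown seedlings. EXPA7 had a lowest, median and highest value of 7.005, 7.44 and 7.98 with sucrose plus SMX, against 5.68, 6.53 and 6.67 with sucrose alone. EXPA18 had 9.26, 9.46 and 9.66 with sucrose plus SMX, against 7.96, 8.27 and 8.61 with sucrose alone. The arrays did not overlap for either gene (background 4.64% on the high side), and 2 of the 4 root marker genes could be matched. Without sucrose, EXPA7 had medians of 3.38 with SMX and 3.53 in the control, and EXPA18 had medians of 5.34 with SMX and 4.55 in the control. The part of root tissue in the levels of the 6 genes was not tested.

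The response of the 6 genes to sucrose alone differed from gene to gene. AT4G38080 was higher by 1.69 (SE 0.317), AT5G04120 by 0.93 (SE 0.233) and AT2G43620 by 0.70 (SE 0.237), and for these 3 the sucrose arrays did not overlap the control arrays (background 17.1% on the high side). The differences were 0.022 (SE 0.189) for AT5G40590, −0.35 (SE 0.201) for AT1G74010 and −0.20 (SE 0.14) for AT5G42250, with overlapping arrays. Against SMX alone, sucrose plus SMX differed by 4.48 (SE 0.317) for AT4G38080, 3.60 (SE 0.237) for AT2G43620, 3.32 (SE 0.233) for AT5G04120, 2.33 (SE 0.189) for AT5G40590, 1.90 (SE 0.201) for AT1G74010 and −1.76 (SE 0.14) for AT5G42250. For 5 genes the sucrose plus SMX arrays lay above the SMX arrays (background 22.3%) and for 1 below (background 23.0%), and 32.5% of all probe sets passed limma's test in this comparison, against 23.5% for sucrose alone. Both comparisons share arrays with the contrasts that chose the genes and carry no test here.

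Averaged over both SMX levels, the 6 arrays with sucrose differed from the 6 without it by 3.09 (SE 0.224) for AT4G38080, 2.15 (SE 0.168) for AT2G43620 and 2.12 (SE 0.165) for AT5G04120. The difference was 1.18 (SE 0.134) for AT5G40590, 0.77 (SE 0.142) for AT1G74010 and −0.98 (SE 0.0993) for AT5G42250. This average holds the sucrose plus SMX arrays by which the genes were chosen, so it too is given without a test. For AT5G40590 and AT1G74010 it rests on those arrays, since sucrose alone overlapped the control. For AT1G74010 its sign is opposite to that of sucrose alone. Sucrose alone overlapped the control for AT5G42250 too. There the average draws on the SMX arrays at both sucrose levels. SMX was lower than its counterpart with sucrose (−0.91, SE 0.14) and higher without it (0.65, SE 0.14).

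Labelling moved with sucrose, and its part in that average cannot be told apart from the treatment. The same holds for the interaction differences, which set arrays with sucrose against arrays without it. After adding the spike score to the model, the sizes of the average were 2.99 for AT4G38080, 2.24 for AT2G43620, 2.36 for AT5G04120 and −0.997 for AT5G42250. AT5G40590 was then 1.74 and AT1G74010 was 0.55.

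Relatives of the 6 genes and a list of pathogen-response genes were followed, 7 lists of 176 genes in all. Of these genes 114 had a probe set (115 probe sets). The pathogen-response list is not a family of any of the 6. With SMX added to sucrose none of the 115 rose and 1 fell by limma with Benjamini-Hochberg adjustment (background 0.119% up and 0.0703% down), with 11 at an unadjusted p under 0.05, against 1256 of all 22746 probe sets. Their median difference was 0.00061, against 0.0 over all probe sets. Without sucrose 1 rose with SMX (background 0.0659% up, 0.0835% in either direction) and 0 fell (background 0.0176%), with 10 at an unadjusted p under 0.05 by limma, against 1510 of all probe sets. For the difference between the SMX responses 0 were positive and 1 was negative (background 0.0352% each way), again with 10 at an unadjusted p under 0.05, against 1391 of all probe sets. Both calls belong to the C1 domain gene AT5G37620, named after its values were seen, which read near the lowest value of the arrays.

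Among chitinases and chitinase-like proteins, 14 of 23 genes were matched. The list spanned −0.040 to 0.96 for SMX with sucrose (median 0.047, 0 called and 2 at an unadjusted p under 0.05, limma). AT2G43590, AT2G43600 and AT2G43610, which lie beside AT2G43620 in the genome and were named after their values were seen, differed by 0.96 (SE 0.472), 0.042 (SE 0.294) and 0.053 (SE 0.213). AT2G43590 averaged 7.70 ± 0.70 with sucrose plus SMX and 6.74 ± 0.41 with sucrose alone (SD, n = 3 each). For sucrose against no sucrose 7 of the 14 rose and 0 fell (limma, Benjamini-Hochberg; background 20.1% up). The smallest p were those of AT1G02360 (2.31, SE 0.104), AT1G56680 (3.79, SE 0.251) and AT2G43610 (1.82, SE 0.151). AT2G43590, AT2G43600 and AT2G43610 thus shared a higher level with sucrose, while for SMX they had small or imprecise differences. AT2G43580 of the same list, also named after its values were seen, read the lowest value, 2.12, in all treatments. Over all lists 42 members were called for sucrose, and 1 once the spike score was fitted.

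C1 domain genes were matched for 60 of 73. With SMX added to sucrose 0 rose and 1 fell. This was AT2G19660, which averaged 6.26 ± 0.17 with sucrose plus SMX and 7.25 ± 0.18 with sucrose alone (SD, n = 3 each), a difference of −0.99 (SE 0.139; limma, Benjamini-Hochberg adjusted p = 0.0384). It moved against AT5G40590 of the same family. Its call ended in 13 of 21 alternatives, among them 10 of the 12 that left out an array, with adjusted p up to 0.144 (limma, Benjamini-Hochberg, without sucrose plus SMX replicate 3). Other C1 domain genes moved with AT5G40590. AT2G37820 and AT2G44370, named after their values were seen, differed by 1.02 (SE 0.181) and 1.03 (SE 0.357) and were not called. The list spanned −0.99 to 1.03 (median 0.00088), with 6 at an unadjusted p under 0.05 by limma, against 1256 of all probe sets. For sucrose against no sucrose 9 rose and 10 fell by limma with Benjamini-Hochberg adjustment (background 20.1% up and 20.6% down).

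Of the phosphoglycerate mutase-like genes 12 of 15 were matched, with 13 probe sets between −0.42 and 0.87 for SMX with sucrose, of which 0 were called (2 at an unadjusted p under 0.05, limma). For sucrose against no sucrose 4 rose and 4 fell (background 20.1% up and 20.6% down), among them PGM (1.84, SE 0.165), AT5G62840 (−2.63, SE 0.304) and AT5G64460 (−1.26, SE 0.166). Hydroxyproline-rich glycoproteins and extensins, 10 of 18 matched, had a median of 0.32 for SMX with sucrose and spanned −0.36 to 0.75 (0 called and 0 at an unadjusted p under 0.05, limma). For sucrose against no sucrose 2 rose, AT3G54580 (2.47, SE 0.425) and AT5G49280 (0.87, SE 0.233), and 0 fell, a count near the background of 20.1% up. In this list the probe sets of HRGP1, AT1G23720, AT5G06630 and AT4G08410 are of a class that may bind other transcripts. AT4G08410 gave the highest SMX difference, 0.75, and these genes were named after their values were seen.

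Strictosidine synthase-like genes, 5 of 14 matched, spanned −0.22 to 0.19 for SMX with sucrose (0 called and 0 at an unadjusted p under 0.05, limma). AT3G57030 rose by 0.69 (SE 0.184) for sucrose against no sucrose, the only call of that list (background 40.7% in either direction). Alcohol dehydrogenases, 6 of 16 matched, spanned −0.40 to 0.20 for SMX with sucrose (0 called and 1 at an unadjusted p under 0.05, limma). AT1G22430 fell by 2.19 on the log2 scale (SE 0.107) for sucrose against no sucrose, while AT1G22440 rose by 1.08 (SE 0.135) and AT1G64710 by 0.52 (SE 0.156). Pathogen-response genes, 7 of 17 matched, spanned −0.29 to 0.36 for SMX with sucrose (0 called and 0 at an unadjusted p under 0.05, limma). In that list the glucanase gene AT4G16260 rose by 2.68 (SE 0.285) for sucrose against no sucrose, and the defensin LCR67 fell by 0.87 (SE 0.238).

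**Figure D3:**
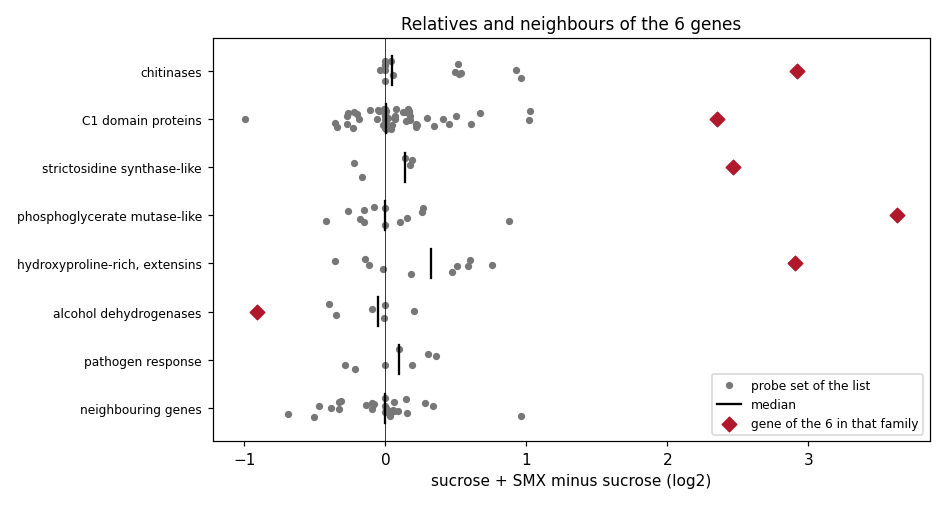
SMX difference with sucrose (sucrose plus SMX minus sucrose, log2) of each probe set in the 7 lists and of the genes that neighbour the 6 in the genome (grey points, medians as black lines), with the gene of the 6 that belongs to each family as a red diamond. The grey points lie between −0.99 and 1.03, and the diamonds at 2.35 or above for 5 families and at −0.91 for alcohol dehydrogenases.

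Genes within 5 positions on either side of the 6 in the TAIR10.1 order were followed as well, 25 genes with 27 probe sets. Their SMX differences with sucrose lay between −0.69 and 0.96. None was called by limma with Benjamini-Hochberg adjustment, and 2 had an unadjusted p under 0.05.

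The 5 rising genes resembled one another across the 12 arrays, and AT5G42250 ran opposite to them, as the choice made them do. Over the 10 pairs of the 5 rising genes Pearson's r lay between 0.81 and 0.97, and over the 5 pairs with AT5G42250 between −0.90 and −0.69. Deviations from the treatment means, which the choice did not use, had r between −0.30 and 0.46 over the 10 pairs, 8 of them positive. Over the 5 pairs with AT5G42250 they had r between −0.28 and 0.63, 4 of them positive. All points share the same 12 arrays.

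The 3 probe sets most like each gene over the 12 arrays were drawn from 7277 with a treatment mean of at least 5. Their SMX differences follow from that likeness and are given without a test. AT1G74460 was among the 3 for AT2G43620 (r = 0.97), AT5G40590 (r = 0.95) and AT5G04120 (r = 0.96). It averaged 6.03 ± 0.41 with sucrose plus SMX, 3.90 ± 0.27 with sucrose, 3.82 ± 0.049 with SMX and 3.34 ± 0.15 in the control (SD, n = 3 each). AT2G23540 and AT2G41730 were among the 3 for both AT2G43620 (r = 0.97 and 0.95) and AT5G04120 (r = 0.95 and 0.98). The probe set of AT2G41730 is of a class that may bind other transcripts.

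AT5G40590 was further followed by AT3G26470 (r = 0.96) and by AT5G64120 (r = 0.95), a peroxidase gene whose SMX difference was 1.92 (SE 0.193) with sucrose and −0.077 (SE 0.193) without it. AT1G74010 was followed by AT1G19380 (r = 0.97), the pectin methylesterase gene ATPMEPCRB (r = 0.96) and AT2G38870 (r = 0.94). ATPMEPCRB averaged 10.0 ± 0.42 with sucrose plus SMX and 7.96 ± 0.21 with sucrose alone (SD, n = 3 each). AT4G38080 was followed by the glutathione transferase GSTU25 (r = 0.97), AT3G15357 (r = 0.96) and the aspartic protease gene NANA (r = 0.96). GSTU25 showed the same 3 steps, at 6.52 ± 0.37 with sucrose plus SMX, 5.11 ± 0.40 with sucrose, 3.51 ± 0.053 with SMX and 3.65 ± 0.30 in the control (SD, n = 3 each).

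AT5G42250 was followed by AT1G65920 (r = 0.96), AT1G61730 (r = 0.95) and AOP1 (r = 0.95), a dioxygenase gene of the glucosinolate locus. AT1G65920 had an SMX difference of −0.82 (SE 0.223) with sucrose and 0.60 (SE 0.223) without it, and AOP1 of −1.43 (SE 0.265) and 0.35 (SE 0.265). AT1G61730 had smaller differences, −0.39 (SE 0.168) with sucrose and 0.33 (SE 0.168) without it. With Spearman's rho in place of Pearson's r, 2 of these 18 places were kept, so the order of likeness depends on the measure.

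**Figure D4:**
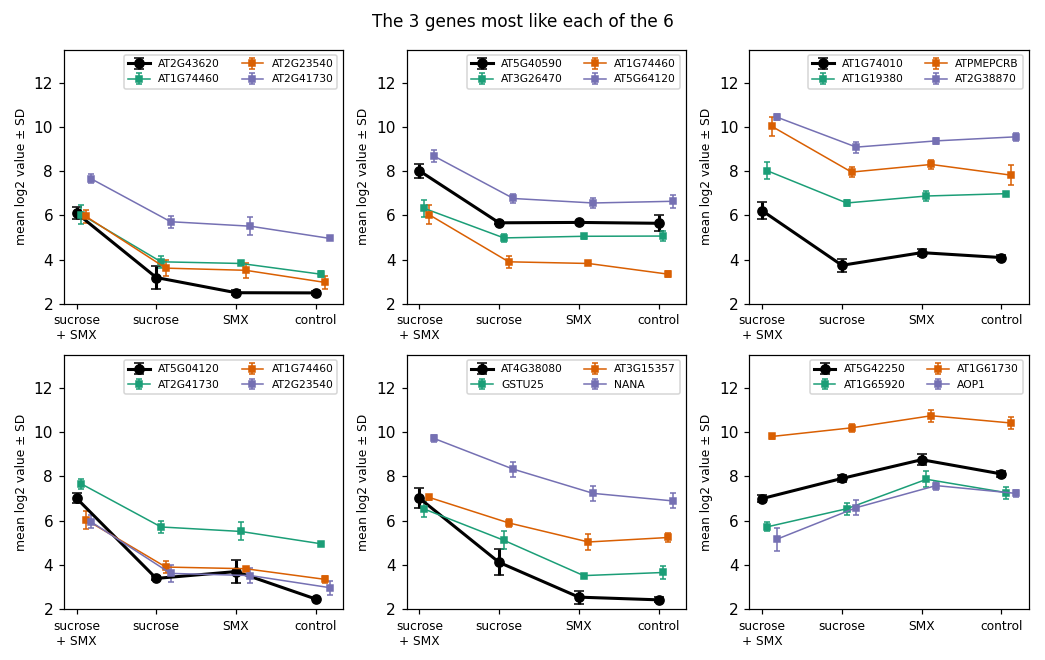
Mean log2 value with SD of 3 arrays for each of the 6 genes (black) and the 3 probe sets most like it (coloured) in the 4 treatments. Those most like the 5 rising genes are highest with sucrose plus SMX, and those most like AT5G42250 are lowest there and highest with SMX alone.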

How the data were processed

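RNA of 12 whole-seedling samples was hybridised to 1 Affymetrix array each. The deposited values are log2 expression values, and GCRMA and limma are named, with no version or order of steps, per the submitters' processing notes. The log base was read from the values, which run from 2.12 to 15.7. All 22746 probe sets that were not Affymetrix controls entered a single limma fit (limma 3.58.1, R 4.3.3) with the 4 treatments as groups, and p-values were two-sided and Benjamini-Hochberg adjusted over all of them at a threshold of 0.05. Array medians lay between 5.63 and 5.84. Precision is limited by 3 arrays per treatment. Genes were named through the platform's annotation and TAIR10.1 gene IDs, which paired 13436 probe sets with a single current gene. Another 503 probe sets were paired with several genes and 8730 with none.

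The 6 genes and the gene lists were chosen with earlier results of these data known. The choice used the SMX contrasts and their arrays, so no contrast is tested for the 6 genes, although a test of their average sucrose difference had been planned. The fit was tried on simulated data with a sucrose shift only, and the SMX and interaction contrasts were not simulated. Named besides the 6 were the 3 probe sets with the highest Pearson r to each, among those whose highest treatment mean was at least 5, and up to 3 called list members with the smallest p, with any further name marked as chosen later. Alternatives covered scaling, low-value filters, labelling scores, the variance model, a replicate block and leaving out each array. No sequences are shown because none were used here.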

Additional observations from a re-analysis of the deposited data

Results flagged for a closer look

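AT5G42250 moved in opposite directions with SMX at the 2 sucrose levels. Every sucrose plus SMX array lay below every sucrose array (difference −0.91, SE 0.14), and every SMX array lay above every control array (difference 0.65, SE 0.14). The gene was chosen for this pattern, so the difference between the 2 effects was not tested. The C1 domain gene AT5G37620 differed between sucrose levels in its SMX response by −0.35 (SE 0.0338; limma, Benjamini-Hochberg adjusted p = 0.0261). It averaged 2.38 ± 0.027 with sucrose plus SMX and 2.38 ± 0.027 with sucrose, and 2.75 ± 0.041 with SMX against 2.39 ± 0.0 in the control (SD, n = 3 each), all near the lowest value of the arrays. After median centring its adjusted p was 0.512, and over the alternatives that could be fitted it ran from 0.00917 to 0.512 (limma, Benjamini-Hochberg).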

How the results depend on the processing

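The SMX differences of the 6 genes with and without sucrose, and the interaction differences, were compared over 17 alternatives. They moved by less than each gene's SD between replicates, pooled over the 4 treatments. The low-value filters, the fit over probe sets of 1 gene and the intensity trend in the variance were not compared for them. The replicate block, or leaving out an array of a treatment outside the difference, could not change a value. Nothing is read from this stability. Differences near 0 without sucrose changed sign in some alternatives, for AT2G43620 (−0.049 to 0.080), AT5G40590 (−0.10 to 0.24) and AT4G38080 (−0.045 to 0.21), and AT5G04120 ran from 1.002 to 1.53. For the average sucrose difference, genes under a filter on mean level have no value with that filter. The average sucrose difference of the 6 genes, which their choice shaped and which supports nothing, kept its direction in every alternative that could be fitted. With the spike score it was 2.24 for AT2G43620, 1.74 for AT5G40590, 0.55 for AT1G74010, 2.36 for AT5G04120, 2.99 for AT4G38080 and −0.997 for AT5G42250. With the actin score it was 2.24 for AT2G43620, 1.53 for AT5G40590, 0.78 for AT1G74010, 2.46 for AT5G04120, 2.95 for AT4G38080 and −0.80 for AT5G42250. The cause of these shifts was not tested. The 9261 probe sets called for sucrose (49.3% higher) became 4872 over probe sets of 1 gene, where fewer were tested, 100 (72.0% higher) and 375 (66.1% higher) once spike or actin scores were fitted, and list members 42, 1 and 4 for all arrays, spike and actin score. For SMX with sucrose 43 were called (62.8% higher), against 66 above a mean of 4 (48.5% higher), 38 above a mean of 6 (28.9% higher), 40 without sucrose plus SMX replicate 3 (87.5% higher), 22 over probe sets of 1 gene, 28 with the replicate block and 26 to 52 on leaving out an array (26 without sucrose replicate 2, 28 without SMX replicate 2). List members called were 1, against 2 after median centring, 0 after quantile normalization and with either score, and 0 to 1 on leaving out an array. For SMX without sucrose 19 were called, against 9 after median centring, 0 above a mean of 4 or 6, 10 over probe sets of 1 gene, 5 with the replicate block and 9 to 70 on leaving out an array (9 without sucrose plus SMX replicate 3, 70 without SMX replicate 3). List members called were 1, against 0 after median centring, quantile normalization or either filter, and 1 to 3 on leaving out an array. For the interaction 16 were called, against 8 after quantile normalization, 6 over probe sets of 1 gene, 3 and 2 after fitting the spike and actin scores, 1 with the replicate block and 7 to 48 on leaving out an array. List members called were 1, and 0 after median centring, quantile normalization, either filter, the actin score or the replicate block. The causes were not tested. Replicate numbers were not taken to pair the samples, since the labels give no shared origin and not every pair's r exceeded 0.1: deviations of same-numbered arrays had r from −0.36 to 0.22, above 0.1 in 6 of 18 pairs, and 8 of 12 arrays correlated best with their own number, a hint of pairing from the data and not from the design. With the replicate block the sucrose differences of the 6 genes kept their size (2.15 for AT2G43620). Every replicate number occurs in every treatment, so the block could not change these sizes.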
